A study of Mus musculus with 14 samples.

Results

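The genes described here build the machinery with which a nerve terminal releases transmitter from synaptic vesicles. They are 43 genes chosen by symbol, and every row of the count table that carried one of these names was taken, which gave 44 rows of the 43346 in the table because Pclo has 2 gene models. The rows were divided by role into vesicle membrane and loading (6), vesicle tethering and Rab3 (7), C2-domain calcium sensors (9), SNAREs and their regulators (9), active zone and priming (10) and vesicle recycling (3). RNA was sequenced from a brain piece holding hippocampus and cortex of 14 female mice aged 23 months, all labelled with the strain C57BL/6;SJL-Tg. The NTG group (mice 7 to 10, n = 4) was labelled wild type and non-transgenic, and the APP/PS1 groups without CP2 (mice 16 to 20, n = 5) and with CP2 (mice 21 to 25, n = 5) carried the genotype APP/PS1 +/+. APP/PS1 mice carry human transgenes that cause amyloid deposits, and the promoter and the cells that drive these transgenes are not given in the sources used here. CP2 is a compound that weakly blocks complex I of the mitochondrial respiratory chain. It was given from 9 months of age at 25 mg/kg/day in drinking water with 0.1% PEG, and the other mice are labelled non-treated while the study's methods describe vehicle water with 0.1% PEG. The APP/PS1 mice without CP2 are called the vehicle group and those with it the CP2 group. No non-transgenic mice given CP2 were analysed here.

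A synaptic vesicle is loaded with transmitter by a vesicular transporter, held near the membrane by synapsins and Rab3 proteins, and primed at the active zone by RIM and Munc13 proteins on a scaffold of Bassoon, Piccolo and ELKS. Fusion is carried out by the SNARE proteins, is clamped and promoted by complexins, and is triggered when synaptotagmins or Doc2 proteins bind calcium through their C2 domains. The ATPase NSF then takes the SNARE complex apart, and dynamin, amphiphysin and synaptojanin recover the membrane.

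Total counts per mouse lay between 70548781 and 106235625, and the members held between 884 and 198506 counts per mouse, so counting error was small beside the spread between mice. Levels are given in CPM, counts scaled to library size with edgeR's TMM factors. Each summed marker list had no gene at 0 in any mouse, including 8 cortical excitatory, 7 hippocampal CA field and 8 dentate gyrus markers. The same held for 10 thalamus and 10 striatum markers, regions that the tissue label does not name. At these total counts a gene above 0 says little about which regions the piece held. In bulk tissue, fewer cells of a type and less RNA per cell cannot be told apart. Mouse 16 of the vehicle group stood apart. Its 10 striatum markers summed to 2236 CPM against 182 to 326 CPM in the other mice. Its dentate gyrus sum (55.2 CPM) and its thalamus sum (179.6 CPM) were the lowest of the 14 mice. Some results of the members that turn on mouse 16 are also given without it.

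The level of each gene per length was compared in the NTG mice with the authors' RPKM values, as shown in the plot of levels per length. The members were abundant, with a median of 40.4 RPKM against 4.95 RPKM over the 16521 genes tested in at least 1 comparison, and 42 of the 44 rows lay above that median. Cplx1, a complexin, had the highest mean with 230.5 ± 7.39 RPKM (SD, n = 4). It was followed by the vesicular glutamate transporter Slc17a7 with 229 ± 28.4 RPKM and the plasma membrane SNARE Snap25 with 205 ± 4.55 RPKM. The ranges of neighbours in this order overlapped in 37 of 43 cases, so most ranks are not separated by these mice. Some paralogs lay further apart, though Doc2a and Doc2b had nearly equal means of 10.7 and 10.6 RPKM. The fast calcium sensor Syt1 had 113 ± 13.6 RPKM and Syt2 16.2 ± 4.26 RPKM, the vesicle SNARE Vamp2 155 ± 16.9 RPKM and Vamp1 27.1 ± 5.45 RPKM, and the priming protein Unc13a 18.7 ± 1.62 RPKM and Unc13b, the lowest member, 2.31 ± 0.176 RPKM. Within the RIM family Rims3 had 30.3 ± 3.90, Rims1 22.3 ± 1.13 and Rims2 11.3 ± 0.578 RPKM.

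**Figure D1:**
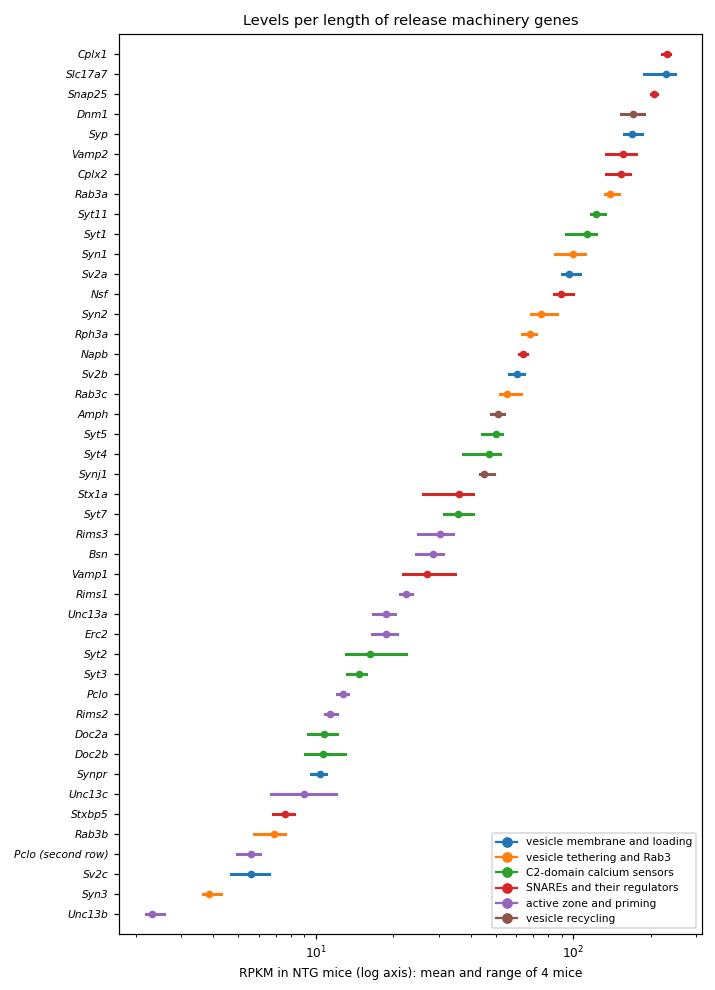
Mean level per length of each row in the 4 NTG mice, as RPKM on a log axis, with lines from the lowest to the highest mouse and colours for the roles. Cplx1, Slc17a7 and Snap25 head the order at means of 205 to 230.5 RPKM and Unc13b closes it at 2.31 RPKM, and most neighbouring ranges overlap.

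The first comparison asked how the vehicle group differed from NTG mice. The members past the unadjusted threshold in this fit were lower in the vehicle group. At an unadjusted p under 0.05 (edgeR's quasi-likelihood test), 8 of the 44 rows passed, the RIM family member Rims3, the SNARE regulators Cplx1 and Nsf, the Rab3 effector Rph3a, and the C2-domain proteins Doc2a, Doc2b, Syt4 and Syt7. Over all 16417 genes tested 8.05% were lower by that rule. In this fit 0 of the 44 were higher, while 10.6% of all genes tested were. Rims1 was higher at that threshold with DESeq2, upper-quartile factors, a joint fit of the 3 groups and without APP/PS1 mouse 18, and Syn3 without NTG mouse 10. After adjustment over all genes tested, only Rims3 fell at a p under 0.05 with edgeR (1 of 44 members, against 1.34% of all genes tested), and 0 members were higher against 4.34% of all genes tested. The values of the groups did not overlap for 1 member that was lower, Rph3a, against 3.82% of all genes, and for 0 that were higher against 6.15%. With DESeq2, Cplx1, Doc2b, Rph3a and Syt4 also had an adjusted p under 0.05, all lower. Counts on the rRNA-like genes Yam1 and AY036118, the rRNA share used here, made up 4.72 to 7.504% of the library in NTG mice, 2.40 to 5.51% in the vehicle group and 4.49 to 7.40% in the CP2 group. With that share in the model Cplx1, Doc2a, Nsf and Syt7 no longer had an unadjusted p under 0.05, which left 4 members, and Doc2b in place of Rims3 had an adjusted p under 0.05. By role, 4 of 9 rows were lower among the C2-domain sensors, 2 of 9 among SNAREs and their regulators, 1 of 7 in tethering, 1 of 10 at the active zone and 0 of 9 in the vesicle membrane and recycling roles together. The median log2 fold change over the members was -0.05 against -0.004 over all genes tested, and 30 of 44 rows lay below 0 against 51.2% of all genes. Without mouse 16 the members with an unadjusted p under 0.05 numbered 7, all lower, with Synpr in place of Nsf and Syt7, and Doc2b, Rph3a and Rims3 had an adjusted p under 0.05. The number with an unadjusted p under 0.05 was 4 without NTG mouse 9, and 5 without NTG mouse 8 or APP/PS1 mouse 19.

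The second comparison set the CP2 group against the vehicle group. At an unadjusted p under 0.05, 3 of the 44 rows were higher with CP2, Rims3, Rph3a and Doc2a, against 2.88% of all 16407 genes tested, and 0 were lower against 3.66%. With an adjusted p under 0.05 there were 0 members with edgeR (of all genes tested 0.00% were higher and 0.00609% lower) and 1 with DESeq2, Rims3. The groups did not overlap for 1 member that was higher, Rims3, against 0.561% of all genes, and for 0 that were lower against 0.616%. The median log2 fold change over the members was 0.04 against -0.006 over all genes tested, and 8 of 44 rows lay below 0 against 52.5% of all genes. Without mouse 16, 6 members had an unadjusted p under 0.05, all higher, the 3 above with Doc2b, Rims1 and Rims2 added. Without APP/PS1 mouse 20 there were also 6, among them Rab3c, Syn2, Synj1 and Syt7 but not Rph3a, and without mouse 17, 23 or 25 there was 1. Without mouse 19 there were 2, Rims3 higher and Syt5 lower. This comparison and the first share the vehicle group, so that opposite signs in them are not independent of each other.

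The third comparison set the CP2 group against NTG mice, and it shares its CP2-treated mice with the second comparison and its NTG mice with the first. Rims1 rose, and with edgeR it was the 1 member with an adjusted p under 0.05 in the higher direction (4.56% of all 16416 genes tested) and the 1 member whose higher values did not overlap (6.43% of all genes). In the same fit 0 of the 44 were lower by either rule, against 1.46% of all genes with an adjusted p under 0.05 and 3.30% without overlap. With DESeq2 the adjusted p was under 0.05 for Synpr and Syt4, which were lower, and for Rims1 and Rims2, which were higher, and with limma-voom for Synpr and Rims1. At an unadjusted p under 0.05, Rims1 and Rims2 were higher (2 of 44, against 11.6% of all genes) and Synpr, Syt4 and Doc2b lower (3 of 44, against 8.59%). The median log2 fold change over the members was -0.02 against -0.002 over all genes, and 27 of 44 rows lay below 0 against 50.6% of all genes. Without NTG mouse 7 the unadjusted count was 9. Cplx2, Rims3, Stx1a, Syt7 and Vamp2 were added, each lower in the CP2 group, and Doc2b dropped out. The adjusted count was then 3 (Rims1, Synpr and Cplx2).

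The intervals bound what these groups could have hidden. The 95% interval of the fold change lay within 1.5-fold in either direction for 41 of 44 rows in the first comparison, 41 in the second and 44 in the third, against 81.4, 90.0 and 87.8% of all genes tested. The exceptions in the first 2 comparisons were Sv2c, Syt2 and Vamp1, whose values spread most between mice.

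**Figure D2:**
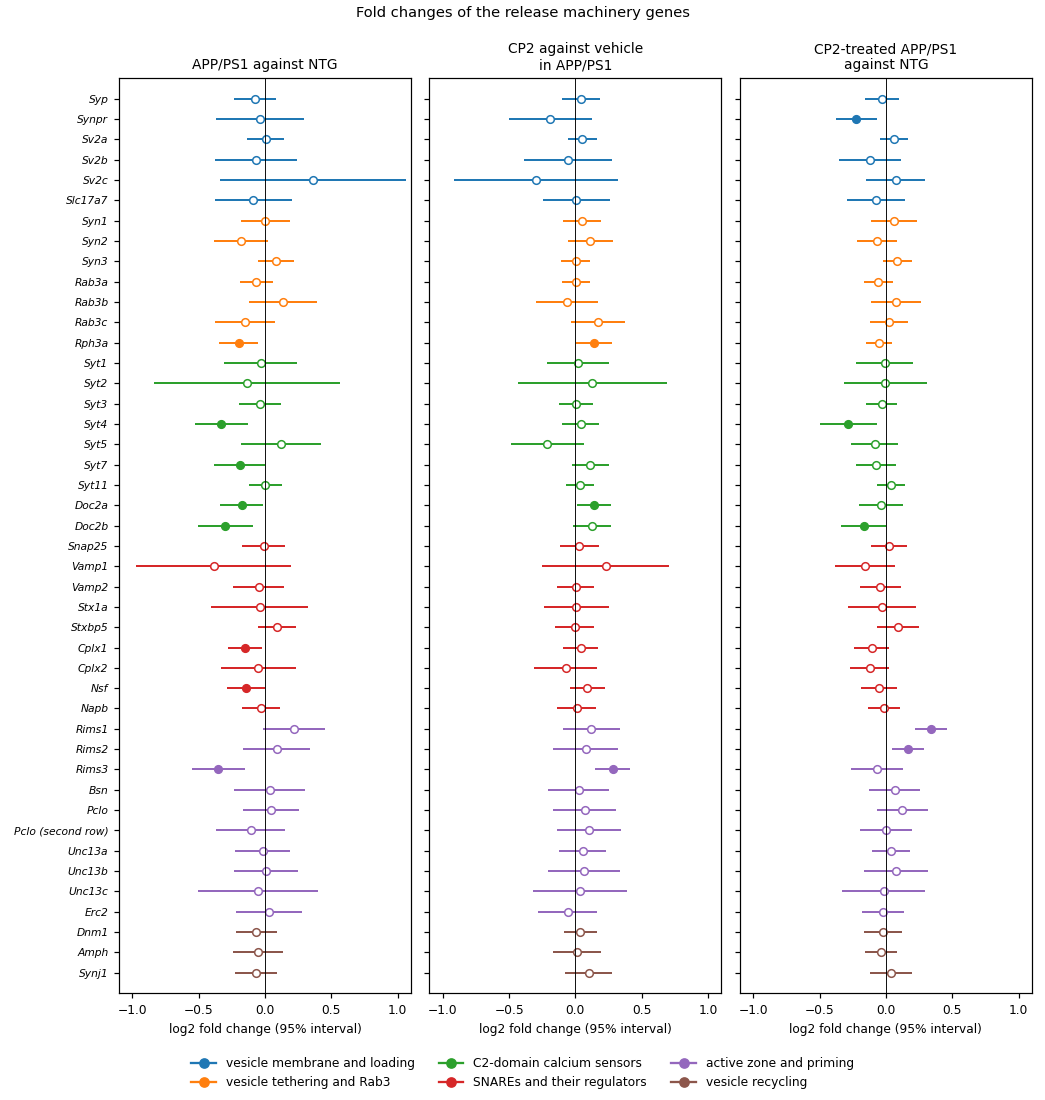
Log2 fold change of each row (point) with its 95% interval (line) in the 3 comparisons, ordered and coloured by role, where filled points have an unadjusted p under 0.05 in edgeR's quasi-likelihood test. Filled points lie left of 0 in the first panel (8 rows), right of 0 in the second (3 rows) and on both sides in the third (2 right, 3 left), and Sv2c, Syt2 and Vamp1 have the widest intervals.

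At the active zone the 3 RIM genes gave fold changes on both sides of 0. RIM proteins bind Rab3 on the vesicle and recruit Munc13 and calcium channels, and Rims3 encodes a short form that keeps only the carboxy-terminal part. Rims3 (ENSMUSG00000032890, mm10 chr4:120854816-120896579) measured 246, 331, 305 and 326 CPM in NTG mice 7 to 10. In mice 16 to 20 of the vehicle group it measured 220.1, 246, 229, 237 and 251 CPM, and in mice 21 to 25 of the CP2 group 272, 278, 323, 278 and 291 CPM. NTG mouse 7 lay within the APP/PS1 range and the other NTG mice above it, whereas all 5 CP2-treated mice lay above all 5 vehicle-treated mice. From NTG to APP/PS1 mice Rims3 fell by 0.35 on the log2 scale (standard error 0.09, edgeR adjusted p = 0.0407). That adjusted p lay between 0.00346 and 0.134 over the fits that left out a mouse, was under 0.05 without NTG mouse 7 or APP/PS1 mouse 16 and above it without any of the other 7 mice, and was 0.267 with the rRNA share in the model. From the vehicle to the CP2 group the log2 fold change was 0.28 (standard error 0.06), and it stayed between 0.24 and 0.31 with each mouse left out. Its adjusted p was 0.529 with edgeR, ranged from 0.245 to 0.989 with a mouse left out, and was 0.00489 with DESeq2. Against NTG the CP2-treated mice gave -0.07 (95% interval -0.25 to 0.12), or -0.15 without NTG mouse 7 (edgeR unadjusted p = 0.0286, adjusted p = 0.178).

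Rims1 (ENSMUSG00000041670, chr1:22286251-22805724), the long RIM, measured 188, 195, 212 and 194 CPM in NTG mice, 277, 239, 184, 219.9 and 226 CPM in the vehicle group and 259, 261, 231, 259 and 238 CPM in the CP2 group. Every CP2-treated mouse lay above every NTG mouse, while the vehicle-treated group spanned from below the lowest NTG mouse to the highest value of all, in mouse 16. From NTG to CP2-treated mice Rims1 rose by 0.34 on the log2 scale (standard error 0.05, edgeR adjusted p = 0.00294), and its adjusted p stayed between 0.00264 and 0.0177 with each mouse left out. The vehicle group gave a log2 fold change of 0.22 against NTG (edgeR adjusted p = 0.285), or 0.14 without mouse 16. Between the APP/PS1 groups it was 0.12 (edgeR adjusted p = 0.809), or 0.20 (edgeR adjusted p = 0.485) without mouse 16. Rims2 (chr15:39198332-39681940), its close relative, measured between 69.2 and 73.0 CPM in NTG, between 64.4 and 97.8 CPM in the vehicle group and between 72.3 and 86.5 CPM in the CP2 group, again with mouse 16 highest. The log2 fold change of Rims2 between CP2-treated and NTG mice was 0.17 (edgeR adjusted p = 0.0899).

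The promoter sequences of these 2 RIM genes are shown because Rims3 and Rims1 are the 2 members with an edgeR adjusted p under 0.05, Rims3 lower in the vehicle group and Rims1 higher in the CP2 group, both against NTG. They are the 250 bases before each gene's start in RefSeq's GRCm38.p6 annotation, the assembly named mm10, read 5′ to 3′ along the gene, with capitals for each GC box (GGGCGG or its reverse complement), the letters bound by Sp1 family factors. The Rims3 stretch is chr4:120854549-120854798 on the plus strand, and the Rims1 stretch is chr1:22806159-22806408 on the minus strand.
Rims3: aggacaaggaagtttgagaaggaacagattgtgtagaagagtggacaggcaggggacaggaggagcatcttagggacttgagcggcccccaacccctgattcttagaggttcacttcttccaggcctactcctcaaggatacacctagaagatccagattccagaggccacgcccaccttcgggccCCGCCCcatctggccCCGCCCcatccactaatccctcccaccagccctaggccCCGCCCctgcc
Rims1: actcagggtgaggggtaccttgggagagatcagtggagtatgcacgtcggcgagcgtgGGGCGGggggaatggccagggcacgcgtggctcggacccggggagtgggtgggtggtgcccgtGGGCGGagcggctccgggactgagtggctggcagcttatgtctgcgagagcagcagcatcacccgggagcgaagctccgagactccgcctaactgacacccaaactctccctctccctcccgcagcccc
Rims3 holds 3 GC boxes, which begin between 64 and 11 bases before the start, and Rims1 holds 2, which begin 192 and 129 bases before it. Of the 43 members 34 matched a RefSeq promoter, and 24 of these (70.6%) held a GC box against 35.4% of 27025 genes. The letters TATAAA occurred in 2 of the 34 (Sv2b and Rab3b) against 14.3% of all genes, and TGACGTCA, the cyclic AMP response element, in 1 (Syn1) against 1.77%. The 27025 genes outnumber the 16521 tested here, so their shares are not those of the genes expressed in this tissue. Each motif was searched on both strands, and a match describes letters, not binding.

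The other active zone rows had small fold changes. The scaffold genes Bsn, Pclo and Erc2 and the priming genes Unc13a, Unc13b and Unc13c had log2 fold changes between -0.06 and 0.05 from NTG to APP/PS1 mice, and the second Pclo row (ENSMUSG00000098239, chr5:14861407-14863459), a short model next to the main one (ENSMUSG00000061601, chr5:14514918-14860184), had -0.11. Without mouse 16 the vehicle group gave -0.15 against NTG for Unc13c, and -0.01 for both the main Pclo row and Erc2. None of these 7 rows had an unadjusted p under 0.05 in any comparison with all mice.

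Among the C2-domain sensors Syt4 had the lowest fold change from NTG. Syt4 is a synaptotagmin whose first C2 domain does not bind calcium as that of Syt1 does. Syt4 (ENSMUSG00000024261, chr18:31437808-31447415) measured 235, 255, 184 and 244 CPM in NTG mice, 182, 187, 186, 173 and 186 CPM in the vehicle group and 174, 182, 217, 180.2 and 189 CPM in the CP2 group. NTG mouse 9 lay among the APP/PS1 values and the other 3 NTG mice lay above every mouse of both APP/PS1 groups. The log2 fold change was -0.33 in vehicle-treated mice (standard error 0.09, edgeR adjusted p = 0.0543) and -0.28 in CP2-treated mice (edgeR adjusted p = 0.114), both against NTG. It was 0.04 between the APP/PS1 groups, with a 95% interval from -0.09 to 0.17. Without NTG mouse 9 its adjusted p was under 0.05 in both comparisons with NTG. Exons of Syt4 share 566 bases, 14.5% of its exon length, with the antisense gene Gm26658. The kit does not mark strand and a read was counted on each gene it overlapped, so that reads of the pair cannot be told apart, and Gm26658 had a log2 fold change of -0.36 in the vehicle group (edgeR adjusted p = 0.0439) and -0.28 in the CP2 group.

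Doc2b and Doc2a encode high-affinity calcium sensors linked to spontaneous and asynchronous release. Doc2b (ENSMUSG00000020848, chr11:75768966-75796049) measured 58.0, 51.4, 54.2 and 67.8 CPM in NTG mice, 52.1, 47.0, 47.3, 47.6 and 41.2 CPM in the vehicle group and 54.1, 49.3, 54.3, 49.4 and 50.4 CPM in the CP2 group. The vehicle-treated group overlapped NTG only through mouse 16. Doc2b gave a log2 fold change of -0.30 in vehicle-treated mice (standard error 0.09, edgeR adjusted p = 0.0875) and -0.17 in CP2-treated mice (edgeR adjusted p = 0.238), both against NTG. Without mouse 16 the value in vehicle-treated mice was -0.34 (edgeR adjusted p = 0.0398). The value in CP2-treated mice was -0.10 without NTG mouse 10, and its unadjusted p exceeded 0.05 in 5 of the 9 fits that left out a mouse and with limma-voom. Between the APP/PS1 groups it was 0.13 (edgeR adjusted p = 0.744), or 0.17 (edgeR adjusted p = 0.470) without mouse 16. Doc2a (ENSMUSG00000052301, chr7:126847416-126852705) measured 32.4, 38.1, 39.0 and 40.7 CPM in NTG mice, 32.4, 33.0, 35.6, 31.8 and 33.3 CPM in the vehicle group and 34.1, 34.5, 40.3, 36.3 and 38.0 CPM in the CP2 group. NTG mouse 7 lay within the vehicle-treated range and the other NTG mice above it. The log2 fold change of Doc2a was -0.18 against NTG (edgeR adjusted p = 0.195) and 0.14 with CP2 (edgeR adjusted p = 0.744). Its unadjusted p exceeded 0.05 in 4 of the 9 fits that left out a mouse against NTG and in 4 of the 10 with CP2, in both with the rRNA share in the model, and with CP2 also with limma-voom. Doc2a shares 1103 bases, 39.4% of its exon length, with Ino80e on the opposite strand, a subunit gene of a chromatin remodelling complex, whose log2 fold changes were -0.09 and 0.07 in the same 2 comparisons.

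Syt7, a sensor for slow release and vesicle replenishment (chr19:10389090-10453181), measured 270.1, 304, 328 and 341 CPM in NTG mice, 255, 268, 256, 268 and 312 CPM in the vehicle group and 285, 281, 306, 309 and 292 CPM in the CP2 group. Mouse 20 was the one vehicle-treated mouse above the lowest NTG value. For Syt7 the log2 fold change against NTG was -0.19 (edgeR adjusted p = 0.238), and the unadjusted p exceeded 0.05 in 7 of the 9 fits that left out a mouse. It also shares 384 bases (5.51% of its exon length) with the antisense gene Gm26859, which had -0.27. The calcium sensors of fast release, Syt1 and Syt2, had log2 fold changes against NTG of -0.03 and -0.14, and neither passed the unadjusted threshold.

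In the tethering group Rph3a, which encodes rabphilin, a C2-domain protein that binds Rab3 on the vesicle, was the member whose values in the vehicle group and in NTG mice did not overlap. Rph3a (ENSMUSG00000029608, chr5:120940502-121009518) measured 339.5, 339, 359.7 and 355 CPM in NTG mice, 331, 286, 324, 302 and 274 CPM in the vehicle group and 345, 319.5, 351, 326 and 337 CPM in the CP2 group. All vehicle-treated mice lay below all NTG mice, with mouse 16 nearest, and the CP2-treated mice lay across both ranges. Rph3a gave a log2 fold change of -0.20 in vehicle-treated mice against NTG (standard error 0.06, edgeR adjusted p = 0.109) and 0.14 with CP2 (edgeR adjusted p = 0.744). Without mouse 16 these values were -0.23 (edgeR adjusted p = 0.0372) and 0.18 (edgeR adjusted p = 0.428). Its partner Rab3a, the Rab3 gene with the highest level per length, had log2 fold changes of -0.07, 0.00 and -0.06 in the 3 comparisons in the order given above. The synapsins Syn1, Syn2 and Syn3 had 0.00, -0.18 and 0.08 from NTG to APP/PS1 mice, and Syn3 shares 14.1% of its exon length with Timp3 on the opposite strand.

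**Figure D3:**
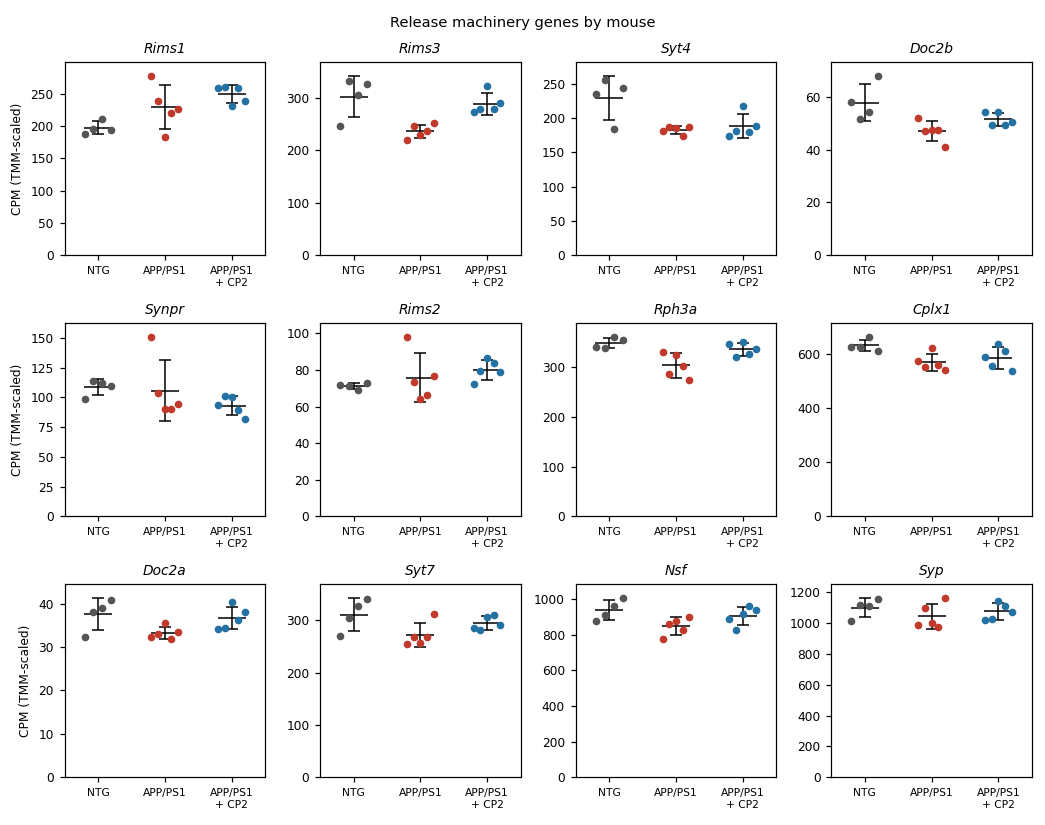
CPM of 12 members in each mouse (points) with the mean and SD of each group (bars), on axes that start at 0. The 5 mice given CP2 lie above the 5 of the vehicle group for Rims3, the 4 NTG mice lie above the vehicle-treated mice for Rph3a and below the CP2-treated mice for Rims1, and the groups overlap for Syp.

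Of the SNARE genes themselves none had an unadjusted p under 0.05 in any comparison with all mice. With a mouse left out, Vamp1 passed that threshold without mouse 18 in the first comparison (-0.58 on the log2 scale) and the second (0.42, against 0.23 with all mice), and without NTG mouse 8 in the third (-0.23), and Stx1a and Vamp2 passed it without NTG mouse 7 in the third. Snap25, Vamp2 and Stx1a had log2 fold changes of -0.01, -0.05 and -0.04 between APP/PS1 and NTG mice and 0.03, 0.00 and 0.01 with CP2. Their regulators Cplx1 and Nsf were lower in the vehicle group at an unadjusted p under 0.05 with edgeR, and Cplx1 also had an adjusted p under 0.05 with DESeq2. Cplx1 (ENSMUSG00000033615, chr5:108518554-108550024) measured 626, 626, 660.2 and 609.9 CPM in NTG mice, 571, 552, 621, 557 and 539 CPM in the vehicle group and 588, 555, 634, 610.5 and 537 CPM in the CP2 group. Mouse 18 was the one vehicle-treated mouse within the NTG range. Against NTG, Cplx1 had a log2 fold change of -0.15 in vehicle-treated mice (edgeR adjusted p = 0.157) and -0.11 in CP2-treated mice (edgeR adjusted p = 0.303), with 0.04 between the APP/PS1 groups. Its paralog Cplx2 had -0.05 against NTG, or -0.17 without mouse 16, with mouse 16 at 1194 CPM and the other vehicle-treated mice between 778 and 892 CPM. Nsf (chr11:103821782-103954056) measured 873, 908, 959.8 and 1002 CPM in NTG mice, 775, 859, 878, 825 and 899 CPM in the vehicle group and 886, 824, 916, 959 and 937 CPM in the CP2 group, and the groups overlapped. Nsf had a log2 fold change of -0.14 against NTG (edgeR adjusted p = 0.246), and the unadjusted p exceeded 0.05 in 6 of the 9 fits that left out a mouse.

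On the vesicle membrane the RNA of Syp, the gene of an abundant vesicle protein often used to count terminals, showed no detectable difference. It measured 1010.4, 1117, 1114 and 1153 CPM in NTG mice, 987, 1097, 998, 973 and 1159.5 CPM in the vehicle group and 1021, 1027, 1145, 1112 and 1071 CPM in the CP2 group. The groups overlapped throughout. The paper reported increased synaptophysin protein in CP2-treated APP/PS1 mice by Western blot of hippocampal tissue. The RNA values here come from hippocampus and cortex together and do not measure that protein. The log2 fold change of Syp was -0.07 in vehicle-treated mice against NTG (95% interval -0.23 to 0.08, edgeR adjusted p = 0.634), 0.04 with CP2 (95% interval -0.10 to 0.18) and -0.03 in CP2-treated mice against NTG (95% interval -0.15 to 0.09). Exons of Syp share 875 bases, 16.8% of its exon length, with the antisense gene Gm14703, which averaged 459.7 CPM and had -0.05 between APP/PS1 and NTG mice. The relative Synpr, synaptoporin (ENSMUSG00000056296, chr14:13284780-13615459), measured 98.9, 114, 112 and 109.9 CPM in NTG mice, 151, 103, 90.0, 90.5 and 94.5 CPM in the vehicle group and 93.6, 101, 100.04, 89.3 and 81.7 CPM in the CP2 group. Mouse 16 was the highest of all and NTG mouse 7 was the one NTG mouse within the CP2-treated range. The log2 fold change of Synpr was -0.22 in CP2-treated mice against NTG (standard error 0.07, edgeR adjusted p = 0.0865). In vehicle-treated mice against NTG it was -0.04, or -0.20 (edgeR adjusted p = 0.0785) without mouse 16.

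The 3 members with the widest spread between mice of a group, chosen after their values were seen, were Syt2, Sv2c and Vamp1, with within-group SDs of 0.43, 0.41 and 0.36 on the log2 scale against 0.06 for both Syt11 and Rab3a and 0.07 for Sv2a. Sv2c, an SV2 isoform known from the basal ganglia, stood at 78.3 CPM in mouse 16 and between 23.9 and 37.0 CPM in the other 13 mice, and mouse 16 also had the high striatum sum. Vamp1 and Syt2 are isoforms known from fast-firing neurons. Vamp1 measured 375, 248, 298 and 263 CPM in NTG mice, 129.5, 195, 339, 293 and 175 CPM in the vehicle group and 278, 269, 261, 256 and 262 CPM in the CP2 group. Syt2 measured 210.4, 133, 156 and 120.1 CPM in NTG mice, 78.5, 98.5, 231, 187 and 109.9 CPM in the vehicle group and 177, 155, 144, 151 and 144 CPM in the CP2 group. In each group the same mouse was highest in Vamp1, Syt2 and the sum of 7 oligodendrocyte markers, mouse 7 (7574 CPM), mouse 18 (7059 CPM) and mouse 21 (6167 CPM). Below the highest mouse, the 3 measures did not rank the mice of a group in the same order throughout. Mouse 16 was the lowest of the 14 in all 3 measures, with an oligodendrocyte sum of 4618 CPM. These markers' part in the levels of Vamp1 and Syt2 was not tested. The log2 fold changes of Vamp1 and Syt2 against NTG in vehicle-treated mice were -0.39 (95% interval -0.96 to 0.19) and -0.14 (95% interval -0.83 to 0.56), or -0.24 and 0.02 without mouse 16. For Sv2c the same value was 0.36, or -0.03 without mouse 16.

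**Figure D4:**
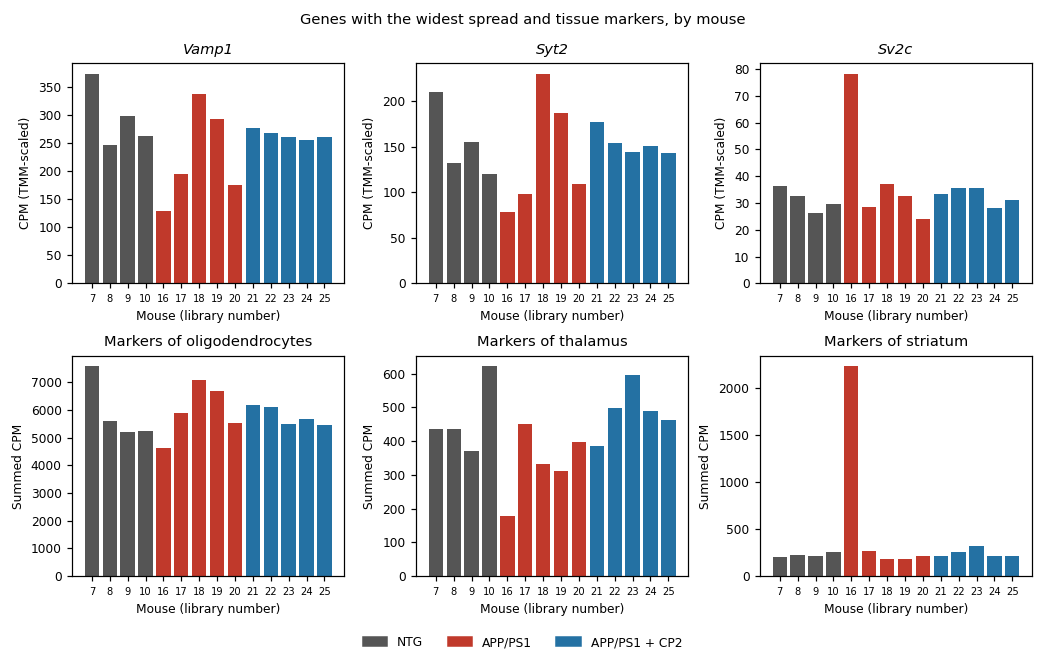
CPM of Vamp1, Syt2 and Sv2c (upper row) and the summed CPM of 7 oligodendrocyte, 10 thalamus and 10 striatum markers (lower row) in each of the 14 mice, in bars coloured by group. Mouse 16 is lowest for Vamp1 (129.5 CPM), Syt2 and the oligodendrocyte sum and highest for Sv2c (78.3 CPM) and the striatum sum (2236 CPM).

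Mice of one group also differed over many members at once. Measured against the NTG mean, the median over the 44 rows lay between -0.09 and 0.06 in NTG mice, between -0.16 and 0.06 in the vehicle group and between -0.11 and 0.05 in the CP2 group. NTG mouse 7 was the lowest NTG mouse in 28 of the 44 rows, and CP2-treated mouse 22 the lowest of its group in 26. Mouse 7 was low for the glutamate transporter Slc17a7 (682 CPM against 879 to 915 CPM in the other NTG mice) and for Stx1a (86.2 CPM against 122 to 138 CPM), and mouse 18 was the lowest of its group in both (651 and 91.9 CPM). Mouse 20 was the highest of the vehicle-treated group in 18 rows and mouse 16 the highest in 14 and the lowest in 15. Levels of other cell types also differed between the groups. All 8 microglia markers had an adjusted p under 0.05 between the vehicle group and NTG mice, with summed levels of 354 to 370 CPM in NTG, 711 to 1016 CPM in the vehicle group and 587 to 891 CPM in CP2-treated mice, while the 10 neuron markers summed to 4844 to 5106, 4632 to 4978 and 4702 to 5153 CPM in these groups. Against NTG mice, 3 of the 10 neuron markers were lower in the vehicle group at an unadjusted p under 0.05 with edgeR. So were 4 of 8 dentate gyrus markers (median log2 fold change -0.66) and 2 of 8 GABA neuron markers, against 8.05% of all genes tested. In the same fit 1 of the 8 GABA neuron, 3 of 6 endothelium and 1 of 7 astrocyte markers were higher, against 10.6%. Of the astrocyte markers 2 were lower, and of the endothelium markers 0. The GABA neuron sum was 1643 CPM in mouse 16 and 1132 to 1262 CPM in the other vehicle-treated mice. With an adjusted p under 0.05, 1 dentate gyrus, 1 GABA neuron and 1 astrocyte marker were lower, against 1.34%. By that rule 1 endothelium and 1 astrocyte marker were higher, against 4.34%, beside the 8 microglia markers. From the vehicle to the CP2 group 5 of 10 thalamus markers were higher at an unadjusted p under 0.05 with edgeR, against 2.88% of all genes tested. The median log2 fold change over the 10 was 0.58, and 0 of them had an adjusted p under 0.05. From NTG mice to the CP2 group 5 of 8 dentate gyrus markers were lower at an unadjusted p under 0.05 with edgeR. Their median log2 fold change was -0.36, and 2 of them had an adjusted p under 0.05, against 1.46% of all genes tested. In that fit 3 of 8 GABA neuron markers were also lower, against 8.59%. Higher were 7 of 8 microglia and 4 of 6 endothelium markers, against 11.6%. The marker counts and medians of the first 2 comparisons include mouse 16. Its thalamus sum was 179.6 CPM against 312 to 451 CPM in the other vehicle-treated mice, and its dentate gyrus sum was 55.2 CPM against 105 to 136 CPM. The part of these cells in the members' values was not tested.

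**Figure D5:**
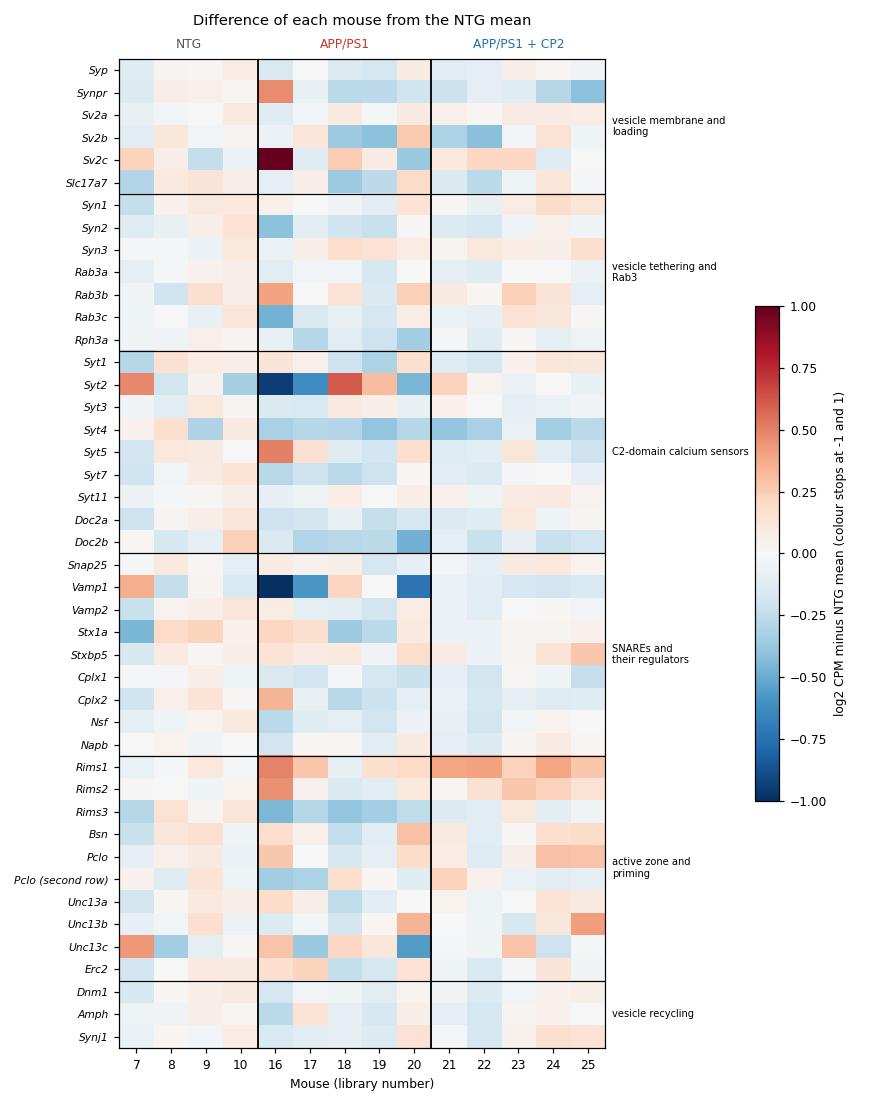
Log2 CPM of each row in each mouse minus the NTG mean, in colours that stop at -1 and 1, with rows grouped by role and mice by group. Mouse 16 shows the strongest colours, for Sv2c (1.34) and Vamp1 (-1.17), Rims1 is above the NTG mean in all 5 CP2-treated mice, and most of the other cells are pale.

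The members were set beside 66 other presynaptic genes listed by role. Between the vehicle group and NTG mice 7 of these were lower and 4 higher at an unadjusted p under 0.05, against 8.05% and 10.6% of all genes tested, and 1 had an adjusted p under 0.05 and was lower, against 1.34%. That gene was Rims4, the other short RIM, which averaged 93.0 ± 8.47 CPM (SD, n = 4) in NTG mice. The vehicle group averaged 73.4 ± 5.71 CPM and the CP2 group 76.1 ± 3.29 CPM (SD, n = 5 each). Its log2 fold change was -0.34 in vehicle-treated mice (edgeR adjusted p = 0.0250) and -0.29 in CP2-treated mice (edgeR adjusted p = 0.0189), both against NTG. The other 2 of the 3 smallest p values belonged to Stxbp5l, a tomosyn that binds syntaxin, with -0.29 (edgeR adjusted p = 0.0543), and to the widely expressed dynamin Dnm2, with 0.25 (edgeR adjusted p = 0.0592). Of the 4 that were higher, 3 (Dnm2, Picalm and Sh3gl3) belong to vesicle recycling and the other is the SNARE Vamp3. Between CP2-treated and vehicle-treated mice 3 of the 66 were higher and 1 lower at an unadjusted p under 0.05, against 2.88% and 3.66% of all genes tested, and 0 had an adjusted p under 0.05 with edgeR. The smallest p values belonged to the endophilin Sh3gl3 with -0.22, the synaptogyrin Syngr3 with 0.12 and the neuronal dynamin Dnm3 with 0.13 (edgeR adjusted p = 0.744 for each). The median over the 66 genes was -0.05 between APP/PS1 and NTG mice and 0.04 with CP2, the same to 2 decimals as over the members.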

How the data were processed

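The authors sequenced TruSeq RNA v2 libraries with paired ends, aligned the reads to mm10 with TopHat2 and used FeatureCounts with Ensembl gene models, where a read counts on each gene it overlaps. The kit does not mark strand, and the strand setting is not given in the sources used here. The deposited table holds unnormalized read counts and RPKM values computed by the authors, and the RPKM values were used only to order genes by level. Groups followed the sample titles. The members and lists were chosen with earlier results of these data known.

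Each pair of groups was fitted alone with edgeR 4.0.16 (R 4.3.3), with TMM factors (0.953 to 1.03), the quasi-likelihood test and Benjamini-Hochberg adjustment over all genes tested. A gene was tested when all mice of 1 or more groups had a robust CPM above 1, and all 44 rows passed. Named members are those with an adjusted p under 0.05 or the smallest unadjusted p under 0.05 (at most 14), with Syp and Doc2a. Standard errors and 95% intervals are those implied by the test. Alternatives were DESeq2 1.42.0, RLE or upper-quartile factors, no filter, a minimum of 10 counts per mouse, a joint fit of the 3 groups, limma-voom (limma 3.58.1) with quality weights, the rRNA share in the model, and each mouse left out in turn. The procedure was tested on simulated data. Python 3.11.15 with pandas 2.3.3 and matplotlib 3.10.9 made tables and figures. Total counts ranged from 70548781 to 106235625, so that 1 count was 0.00941 to 0.0142 CPM, which covers counting error only. No 2 replicates were identical (26 pairs, lowest chi-square per degree of freedom 10.6). The labels do not tie mice of different groups together, and p-values judge a difference between groups against the spread between mice.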

Additional observations from a re-analysis of the deposited data

Results flagged for a closer look

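Each member was examined in each group for 1 mouse far from the others with Dixon's test, which covers 132 sets of 4 or 5 mice, and 7 stood out, about as many as the 1 in 20 that chance flags. Of these, 3 were high values of vehicle-treated APP/PS1 mouse 16. Synpr was 151 CPM there against 90.0 to 103 CPM in the other vehicle-treated mice, Sv2c 78.3 CPM against 23.9 to 37.0 CPM, and Cplx2 1194 CPM against 778 to 892 CPM. The same mouse had the high striatum marker sum of 2236 CPM, whose part in these values was not tested. In NTG mouse 7 the vesicular glutamate transporter Slc17a7 was low, with 682 CPM against 879 to 915 CPM. In vehicle-treated APP/PS1 mouse 20 Syt7 was high, with 312 CPM against 255 to 268 CPM, and so was the phosphoinositide phosphatase gene Synj1, with 498 CPM against 408 to 425 CPM. In CP2-treated mouse 23 the synaptotagmin Syt5 was high, with 119 CPM against 94.8 to 102 CPM.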

How the results depend on the processing

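The number of members with an unadjusted p under 0.05 between the vehicle group and NTG mice was 8, and it was 4 with the rRNA share in the model (Doc2b, Rims3, Rph3a and Syt4) and 4 to 11 with each mouse left out. The number with an adjusted p under 0.05 was 1, and it was 5 with DESeq2 (all lower), 4 with a joint fit of the 3 groups, 2 with limma-voom, 0 to 3 with each mouse left out, and 1 with the rRNA share in the model, which was then Doc2b and not Rims3. From the vehicle to the CP2 group the unadjusted count was 3 and lay between 1 and 6 over the fits that left out a mouse, and the adjusted count was 0, stayed at 0 in all 10 of those fits and was 1 with DESeq2. From NTG mice to the CP2 group the unadjusted count was 5, fell to 3 with a joint fit of the 3 groups and was 4 to 9 with each mouse left out, and the adjusted count was 1, with 4 for DESeq2 (2 lower), 2 for limma-voom (1 lower) and 1 to 3 with each mouse left out. The median log2 fold change over the members kept its sign with each mouse left out, from -0.08 to -0.01, from 0.02 to 0.06 and from -0.05 to -0.001 in the 3 comparisons in that order. The median over all genes tested lay between -0.0077 and 0.0080, -0.011 and -0.00055, and -0.013 and 0.0014. Of 327 fits of single named members under an alternative, 282 kept their direction and side of the unadjusted threshold, 44 lost the threshold and 1 reversed. These fits covered a member only in comparisons where it passed the unadjusted threshold in the main fit, and Syp in all 3. Members that passed the threshold only under an alternative are not in this tally, so it does not measure how often calls were gained. The reversal was Syp with CP2, at -0.0041 with the rRNA share in the model. The cause of these moves was not tested. No paired analysis was possible because the groups share no replicate numbers.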
